A study of Drosophila melanogaster with 6 samples.

Results

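In Drosophila follicle cells that expressed the Q79K-W80R form of human AKT1, 100 genes were taken as those standing highest above every other group of the study. They were chosen by the measured values themselves. In the deposited matrix of normalized counts, 7726 of 17493 genes had a mean of at least 50 over the 18 libraries. For each of these genes, log2(normalized count + 1) was averaged over the 3 libraries of a group, and the score was the Q79K-W80R average minus the largest average among the other 5 groups. The 100 highest scores ran from 0.67 (GstE8, 1.59-fold) to 2.24 (CG13659, 4.71-fold), with a median of 0.92 (1.89-fold), and 37 genes scored 1 or more. Since the score used the Q79K-W80R libraries, every difference between Q79K-W80R and another group is a description here, without a test. Tests were made only between groups that leave out Q79K-W80R, whose order among themselves the score does not fix. The values of those groups still entered the choice, through the largest of their averages and through the minimum mean. The tests are therefore not independent of the choice.

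All groups carried the traffic jam-GAL4 driver, through which somatic ovary cells express a transgene. Q79K-W80R flies expressed AKT1 with both substitutions in its pleckstrin homology (PH) domain. T1, T15 and T5 flies expressed AKT1 with an in-frame tandem duplication in the same domain, WT flies expressed unmutated AKT1, and LP flies had the empty landing pad without a transgene. The transgenes were FLAG-tagged and had been inserted at one landing site, and each form was represented by crosses of one name, so the form and other features of that fly line cannot be told apart. Each group had 3 libraries of stranded mRNA, each made from 30 pairs of ovaries of an individual cross that were digested with trypsin and collagenase and passed through a mesh, with no sort of the cells. Ages were not given in the labels.

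AKT kinases act downstream of phosphoinositide 3-kinase. Their PH domain binds the lipids that this enzyme makes at the membrane, and the activated kinase promotes growth, survival and nutrient use. Several of the genes described here belong to families that act elsewhere in fly physiology. Glutathione S-transferases and cytochromes P450 modify toxic or oxidized compounds so that they can be removed, ecdysteroid kinase-like genes encode a family of predicted small-molecule kinases named after ecdysteroid 22-kinase, and Hsp70 proteins are stress-induced chaperones.

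The normalized counts summed to 23.7 to 24.3 M in Q79K-W80R libraries and 23.6 to 34.2 M in the other 15. The commonest lowest nonzero value was 0.79 to 0.85 in Q79K-W80R and 1.23 to 1.35 in WT, so a normalized count stood for fewer reads in WT. On deviations from the gene means, each Q79K-W80R library was nearest to another of its own group (r = 0.843 to 0.854 across genes, which are not independent). For libraries of the other groups the best correlation within the group was -0.341 to 0.741, so the Q79K-W80R libraries were more alike than those of any other group. The third T1 library had its highest correlation, 0.598, with the first T15 library and at best -0.341 with its own group, and the first WT library was nearest to that T1 library (r = 0.474). These libraries are named below wherever a value rests on them. The somatic ovary markers tj and eya were present in all libraries. tj was at 8521 to 9475 in Q79K-W80R, below the 9737 to 20471 of the other 15, and eya at 3520 to 4312 and 2939 to 5656. Other markers varied: mirr was at 1260 to 1410 and 1019 to 3457, and slbo at 149 to 206 and 102 to 599. Fas3 was at 5181 to 6249 and 2550 to 7173, and hth at 2.35 to 4.05 and 1.35 to 21.4. The mean log2 level over 15 such markers was 9.36 to 9.42 in Q79K-W80R and 9.22 to 9.92 in the others. Germline RNA was present as well, with osk at 8882 to 11816 in Q79K-W80R and 4116 to 15596 in the others. In such bulk libraries fewer cells of a type and less RNA per cell cannot be told apart.

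The 100 genes had a median of 176 normalized counts over the 18 libraries, against 887 for all genes with a mean of at least 50, on a scale that does not correct for gene length. Only 25 had a mean under 100, and 16 had a mean of at least 1000. In 64 of the 100 all 3 Q79K-W80R libraries were above all other 15 libraries, which held for 2.23% of the 7726 genes, a share that the score itself raises. The 3 Q79K-W80R libraries were close to each other for most of them: the highest was less than 1.5 times the lowest in 92 genes, and the median ratio was 1.19. By chromosome arm 32 lay on 3R, 21 on 2R and 15 each on X, 2L and 3L, against 24.1%, 20.2%, 17.2%, 17.5% and 19.2% of all 7726 genes. The 2 genes without an annotated arm also had no symbol in the annotation used and are given by their identifiers.

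CG13659, a member of the ecdysteroid kinase-like family, had the highest score. CG13659 had 653, 570 and 611 normalized counts in Q79K-W80R, against 134, 164 and 81.4 in T1, 60.3, 44.9 and 59.5 in T15, 185, 100 and 115 in T5, 43.1, 36.9 and 21.5 in WT and 19.9, 35.2 and 28.9 in LP. The Q79K-W80R libraries lay more than 3 times above the highest other library, and T1 and T5 lay above WT and LP. Arc1, whose protein is derived from a retrotransposon Gag protein and forms capsids that carry RNA, came next. Arc1 had 19331, 18619 and 15420 normalized counts in Q79K-W80R, against 2962, 2749 and 2751 in T1, 3087, 1653 and 3186 in T15, 5681, 3193 and 4341 in T5, 1910, 2146 and 3025 in WT and 2993, 2258 and 2797 in LP. Its Q79K-W80R libraries stood far above the rest, the 3 T5 libraries came next, and T1, T15, WT and LP overlapped each other. Arc2, its neighbor with 1 gene between them, had 228 to 298 normalized counts in Q79K-W80R, against 84.1 to 147 in T1, 73 to 87.3 in T15, 87.9 to 124 in T5, 43.7 to 70.2 in WT and 40.5 to 53.3 in LP, so that both paralogs were highest in all 3 Q79K-W80R libraries.

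Cyp9b2, a cytochrome P450, showed a pattern close to that of CG13659. Cyp9b2 had 672, 716 and 678 normalized counts in Q79K-W80R, against 202, 281 and 115 in T1, 114, 66.5 and 79.9 in T15, 252, 120 and 167 in T5, 53, 148 and 75.1 in WT and 113, 68.5 and 83.5 in LP. The 3 other P450 members were Cyp12a5 with 162 to 195 normalized counts in Q79K-W80R and 20.2 to 106 in the other 15 libraries, Cyp6a23 with 453 to 474 normalized counts in Q79K-W80R and 112 to 306 in the other 15 libraries and Cyp9f2 with 991 to 1013 normalized counts in Q79K-W80R and 165 to 852 in the other 15 libraries. Zip89B, a zinc transporter, had 912 to 935 normalized counts in Q79K-W80R and 162 to 402 in the other 15 libraries, with the 3 Q79K-W80R values close together. CG32444, of the galactose mutarotase family, had 412 to 473 normalized counts in Q79K-W80R and 22 to 140 in the other 15 libraries. CG9411 had 770 to 881 normalized counts in Q79K-W80R and 29.5 to 341 in the other 15 libraries, the highest of the others being the first T1 library. In each of these genes the 2 sets of libraries did not touch.

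**Figure D1:**
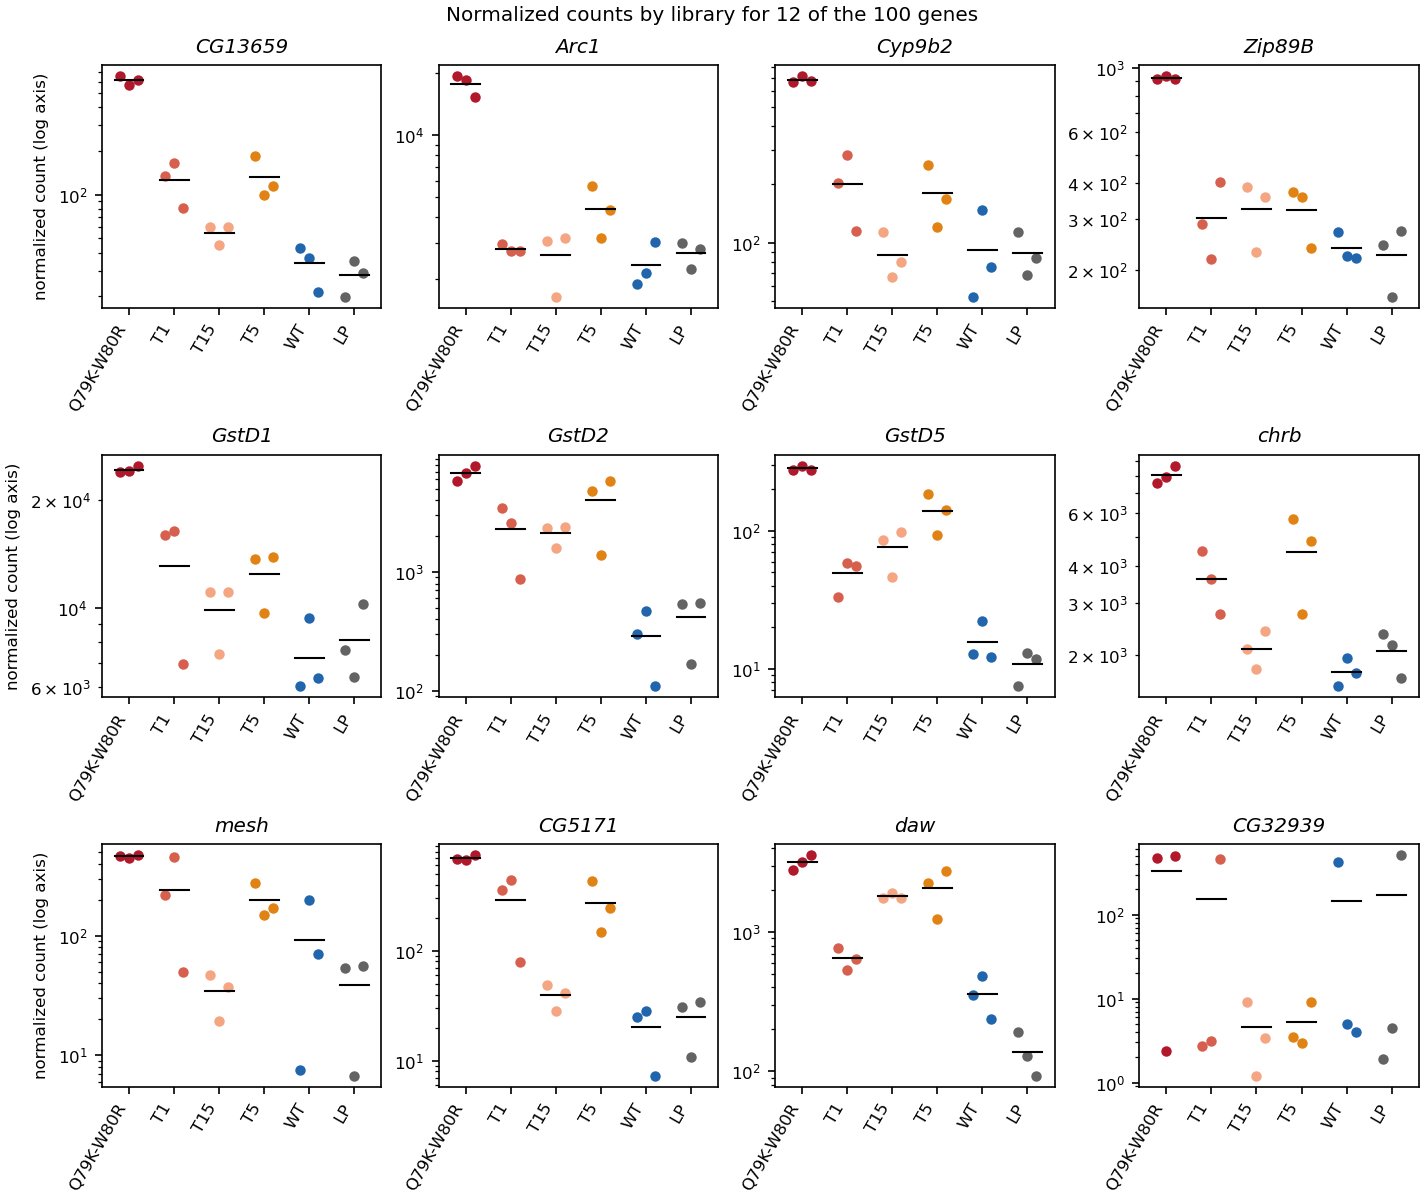
Normalized counts on a log axis for 12 of the 100 genes, with a point for each library and a line at the group mean (3 libraries per group). Arc1 sits at 15420 to 19331 in Q79K-W80R and at most 5681 elsewhere. daw and GstD5 are also above WT in T1, T15 and T5, and CG32939 switches between under 10 and over 400 within groups.

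The remaining genes among the 25 highest scores covered enzymes, transporters and cytoskeletal proteins. Dgk, a diacylglycerol kinase, had 207 to 238 normalized counts in Q79K-W80R and 35 to 134 in the other 15 libraries. CAH2, a carbonic anhydrase, had 1276 to 1873 normalized counts in Q79K-W80R and 67.7 to 1121 in the other 15 libraries. Myo28B1, an unconventional myosin, had 347 to 423 normalized counts in Q79K-W80R and 5.2 to 242 in the other 15 libraries. ringer, a microtubule-binding protein, had 358 to 388 normalized counts in Q79K-W80R and 40.7 to 270 in the other 15 libraries, and Ance, a homolog of angiotensin-converting enzyme, had 639 to 857 normalized counts in Q79K-W80R and 79.3 to 598 in the other 15 libraries. CG31288, the gene next to CG13659 and of the same family, had 341 to 375 normalized counts in Q79K-W80R and 16 to 181 in the other 15 libraries. The others were CG31313, CG16995, CG18258, CG15431, CG7778 and FBgn0027341, each with no overlap between Q79K-W80R and the rest, and CG5246 and CG15422, where the first T5 and the second T1 library reached into the Q79K-W80R range.

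CG32939 was a member for a different reason. CG32939 had 474, 2.36 and 502 normalized counts in Q79K-W80R, against 2.7, 3.11 and 458 in T1, 9.04, 1.21 and 3.43 in T15, 3.51, 2.97 and 9.12 in T5, 428, 4.93 and 4.03 in WT and 1.9, 4.4 and 509 in LP. Within Q79K-W80R, T1, WT and LP it was either under 10 or over 400, so its score of 1.99 rests on 2 of 3 Q79K-W80R libraries against at most 1 library in each other group. CR42722, whose symbol marks a non-coding gene or pseudogene, was also uneven: CR42722 had 1281, 1219 and 868 normalized counts in Q79K-W80R, against 804, 1434 and 0 in T1, 0, 0 and 112 in T15, 71.2, 463 and 266 in T5, 0, 1445 and 0 in WT and 653, 386 and 849 in LP. It was listed at 0 in 5 libraries, and its highest value was in the second WT library. P5CS, an enzyme of proline synthesis, had 352 to 826 normalized counts in Q79K-W80R, against 61.3 to 660 in T1, 39.9 to 77.7 in T15, 138 to 738 in T5, 53.1 to 157 in WT and 56.6 to 207 in LP, with the highest Q79K-W80R library more than 2 times the lowest. CG32939 and P5CS were the only members whose Q79K-W80R libraries differed by 2-fold or more.

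Glutathione S-transferases (GSTs) made up 10 of the 100 genes. They were 10 of the 25 GST genes with a mean of at least 50 (40%), against 100 of 7726 genes, and 9 of them were among 23 such genes of a list for the oxidative stress and xenobiotic response (39.1%). GstD1, a delta-class enzyme, had the highest normalized counts of the 10, which are not scaled by gene length. GstD1 had 23934, 24079 and 24938 normalized counts in Q79K-W80R, against 16003, 16361 and 6962 in T1, 11025, 7388 and 11033 in T15, 13658, 9633 and 13844 in T5, 6026, 9337 and 6358 in WT and 7604, 6405 and 10252 in LP. All 3 Q79K-W80R values were above every other, and the third T1 library, which stood apart, was lowest in T1. GstD2 differed most in level between groups. GstD2 had 5821, 6740 and 7822 normalized counts in Q79K-W80R, against 3448, 2598 and 878 in T1, 2362, 1585 and 2410 in T15, 4824, 1388 and 5857 in T5, 300, 466 and 110 in WT and 538, 167 and 547 in LP. The third T5 library reached the lowest Q79K-W80R library, and all T1, T15 and T5 libraries were above every WT and LP library. GstD5 behaved alike. GstD5 had 278, 297 and 277 normalized counts in Q79K-W80R, against 33.3, 58.9 and 55.8 in T1, 86, 46.3 and 97.8 in T15, 184, 94.1 and 142 in T5, 12.9, 22.2 and 12.1 in WT and 7.51, 13 and 11.8 in LP. Its Q79K-W80R libraries did not overlap any other, and its WT and LP libraries reached at most 22.2.

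GstD10, GstD9, GstD1, GstD2, GstD3 and GstD5 lie on 3R within one run of neighboring genes, with none to 2 genes between consecutive members, and near-identical GST copies can share reads in an estimated count. GstD10 had 252 to 279 normalized counts in Q79K-W80R and 28.4 to 155 in the other 15 libraries. Both just inside the limit of the 100, GstD9 had 569 to 619 normalized counts in Q79K-W80R and 185 to 486 in the other 15 libraries, and GstD3 had 2596 to 3446 normalized counts in Q79K-W80R and 888 to 1992 in the other 15 libraries. The epsilon-class GstE6 had 1433 to 1550 normalized counts in Q79K-W80R and 437 to 1072 in the other 15 libraries, and GstE3 had 1142 to 1188 normalized counts in Q79K-W80R and 171 to 1006 in the other 15 libraries. GstE8, last of the 100, had 70.2 to 95.5 normalized counts in Q79K-W80R and 23.9 to 78.3 in the other 15 libraries, which overlap. GstT4, of the theta class, had 2404 to 2559 normalized counts in Q79K-W80R and 595 to 1960 in the other 15 libraries.

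The other 15 GST genes ranged widely. GstE7 and GstE5 fell outside the 100 with scores of 0.62 and 0.6, and had means of 198 and 104 normalized counts in Q79K-W80R and 77.3 and 53.5 in WT. In 6 of the 15 the Q79K-W80R average was the highest of the 6 groups, which held for 19.4% of all 7726 genes. GstT3 had a mean of 805 in Q79K-W80R and 1370 in WT, and GstS1 had 2971 in Q79K-W80R and 3845 in WT. Over all 25, members included, 16 were highest in Q79K-W80R and the median difference between Q79K-W80R and WT was 0.94 on the log2 scale, against -0.00 for all genes. For cytochromes P450 these values were 4 members of 26 genes, 20 of 26 highest in Q79K-W80R and a median of 1.05. These family lists were drawn up after members had been seen in them.

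Of 18 ecdysteroid kinase-like genes with a mean of at least 50, 7 were members, against 100 of 7726 genes. Beside CG13659 and CG31288 these were CG9498, CG32195, CG10559, JhI-26 and CG6908. CG9498 had 240 to 317 normalized counts in Q79K-W80R and 13.4 to 173 in the other 15 libraries, and CG32195 had 184 to 217 normalized counts in Q79K-W80R and 42.1 to 117 in the other 15 libraries. CG10559 had 132 to 170 normalized counts in Q79K-W80R and 24.2 to 121 in the other 15 libraries. JhI-26, named for its induction by juvenile hormone, had 317 to 354 normalized counts in Q79K-W80R and 78.3 to 242 in the other 15 libraries, and CG6908 had 2318 to 2459 normalized counts in Q79K-W80R and 173 to 1957 in the other 15 libraries. None of the 7 overlapped in its values between Q79K-W80R and the rest, which held for 64 of the 100 members and 2.23% of all genes. The family also held genes with the opposite order. CG5644 averaged 79.9 normalized counts in Q79K-W80R and 539 in WT, and CHKov1 averaged 166 in Q79K-W80R and 468, 606 and 435 in T1, T15 and T5, against 63.2 in WT. The median difference between Q79K-W80R and WT over the 18 was 1.42 on the log2 scale.

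**Figure D2:**
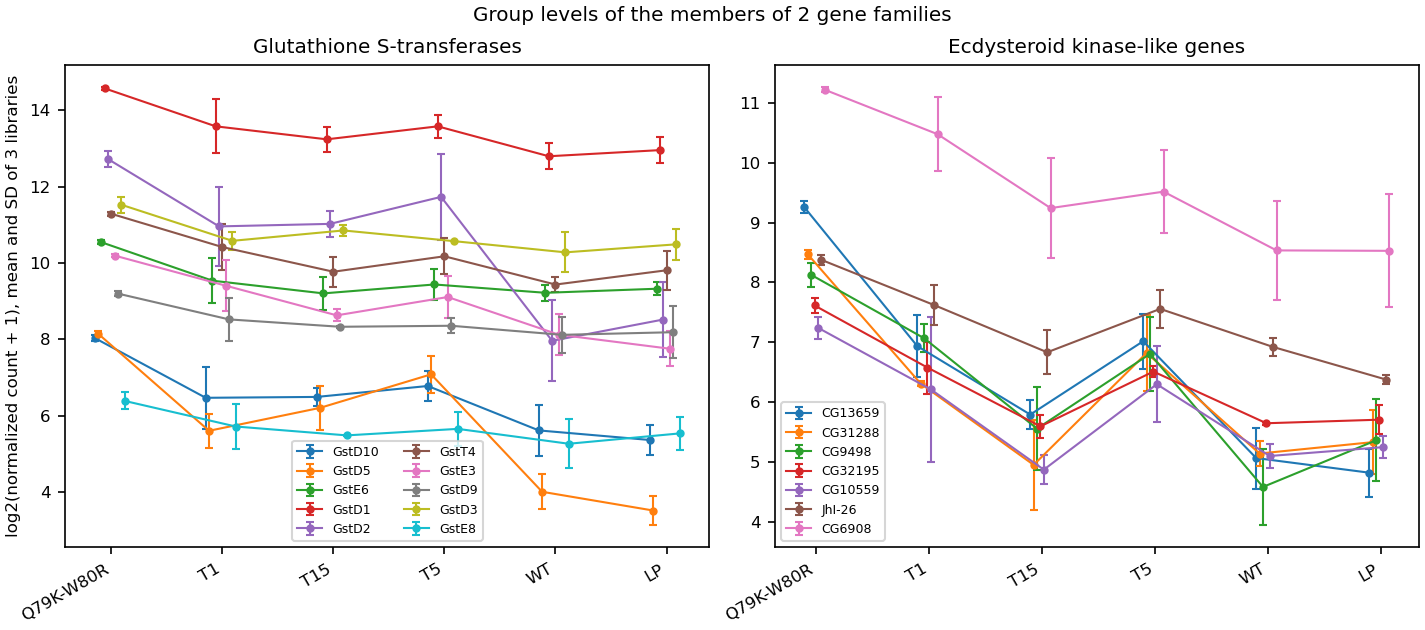
Mean and SD of log2(normalized count + 1) over 3 libraries in each group for the 10 glutathione S-transferases (left) and the 7 ecdysteroid kinase-like genes (right) among the 100. GstD2 and GstD5 are the GSTs furthest apart between the AKT1 mutants and WT or LP. None of the 7 kinase-like genes overlaps between Q79K-W80R and the rest, as for 64 of the 100 genes.

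Several members act in signaling. The growth factor daw is a ligand of the activin branch of TGF-beta signaling. daw had 2785, 3200 and 3558 normalized counts in Q79K-W80R, against 767, 532 and 639 in T1, 1766, 1903 and 1744 in T15, 2247, 1236 and 2750 in T5, 354, 484 and 238 in WT and 192, 129 and 93.2 in LP. The order ran from Q79K-W80R through T5 and T15 to T1, WT and LP, with T5 and T15 overlapping and with the lowest Q79K-W80R library just above the third T5 library. scaf encodes a serine protease-like protein regulated by JNK signaling. scaf had 1545, 2254 and 2955 normalized counts in Q79K-W80R, against 331, 249 and 539 in T1, 624, 637 and 686 in T15, 1472, 626 and 1224 in T5, 194, 151 and 82.6 in WT and 168, 459 and 182 in LP. Its Q79K-W80R libraries were spread widely, and the first T5 library came close to the lowest of them. Of 13 genes of BMP and activin signaling with a mean of at least 50, daw was the only one with its highest average in Q79K-W80R, against 19.4% of all genes. dpp averaged 250 in Q79K-W80R and 597 in WT. Of 17 JNK and AP-1 genes, scaf was the only member, with puc at 2768 in Q79K-W80R, 3101 in T1 and 1351 in WT.

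chrb, a homolog of REDD1 that restrains TOR signaling downstream of AKT, was the only one of 27 PI3K, Akt and TOR genes among the 100. chrb had 7599, 7963 and 8675 normalized counts in Q79K-W80R, against 4492, 3621 and 2758 in T1, 2101, 1793 and 2418 in T15, 5740, 2761 and 4831 in T5, 1576, 1960 and 1744 in WT and 2363, 2168 and 1682 in LP. All Q79K-W80R libraries were above every other, T1 and T5 libraries were above every LP and WT library, and T15 overlapped LP. Its paralog scyl, with a score of 0.57, was not a member, at 14765 in Q79K-W80R, 10401 in T1, 6028 in T15, 9965 in T5, 3479 in WT and 4065 in LP on average. Over the 27 genes the median difference between Q79K-W80R and WT was -0.02 on the log2 scale, and 6 of 27 were highest in Q79K-W80R (22.2%, against 19.4% of all genes). rpr, which binds the caspase inhibitor Diap1 and promotes apoptosis, had 218 to 265 normalized counts in Q79K-W80R, against 57.9 to 173 in T1, 49.9 to 73.5 in T15, 78.2 to 247 in T5, 20.2 to 48.8 in WT and 19.6 to 33.9 in LP. Of 12 cell death genes, 10 had their highest average in Q79K-W80R, against 19.4% of all genes, most of them by a small margin, and rpr alone was a member. Drat, in the same list, averaged 14582 in Q79K-W80R and 329 in WT but was close behind in T5 and T1, with 11832 and 10118.

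SPR, the receptor for the seminal sex peptide, was near 0 in LP. SPR had 115, 171 and 227 normalized counts in Q79K-W80R, against 142, 59.4 and 45 in T1, 46.1, 35.8 and 58.8 in T15, 138, 64.2 and 70.1 in T5, 9.63, 8.2 and 4.41 in WT and 1.74, 0 and 2.33 in LP. The T1, T15 and T5 libraries were all at 35.8 or more, the WT and LP libraries at 9.63 or less, and the first T1 and T5 libraries lay within the Q79K-W80R range. Syt12, a synaptotagmin, had 111 to 152 normalized counts in Q79K-W80R, against 25 to 40.9 in T1, 30.1 to 62.5 in T15, 59.4 to 78.7 in T5, 2.5 to 17.2 in WT and 6.85 to 22.3 in LP. Its WT and LP libraries reached at most 22.3, below every library of the 4 mutants. Hesr, a Hes-related transcription factor, had 174 to 206 normalized counts in Q79K-W80R and 19.6 to 165 in the other 15 libraries, and Dscam3, an immunoglobulin-type adhesion protein, had 189 to 213 normalized counts in Q79K-W80R and 75.3 to 151 in the other 15 libraries.

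mesh, a membrane protein of the smooth septate junctions of endodermal epithelia, was one of 5 genes of a list of such junctions and of enterocyte genes that had a mean of at least 50. mesh had 465, 451 and 474 normalized counts in Q79K-W80R, against 222, 462 and 49.4 in T1, 47.4, 19.4 and 37.1 in T15, 277, 151 and 172 in T5, 7.54, 201 and 70.8 in WT and 54.3, 6.75 and 56 in LP. The second T1 library reached the Q79K-W80R level, and WT and LP each varied more than 8-fold. Ssk, another junction gene of the list, had 46.7 to 65.6 normalized counts in Q79K-W80R, 328 in the second T1 and 119 in the second WT library. Tsp2A and hoka, under a mean of 50, were also highest in the second T1 library. Myo61F was closer to mesh, with 7680 to 8724 in Q79K-W80R and 3299 to 7774 in the other 15 libraries. Midgut enzymes summed to 5935 in the second T1 and 11682 in the second WT library, and 15.8 to 16.7 in Q79K-W80R. Their part in mesh was not tested. CG5171, a trehalose-phosphatase-like gene, spanned a wider range than mesh. CG5171 had 685, 674 and 741 normalized counts in Q79K-W80R, against 355, 441 and 79.2 in T1, 48.8, 28.3 and 41.3 in T15, 429, 149 and 247 in T5, 24.9, 28.6 and 7.32 in WT and 30.8, 10.8 and 34 in LP. The 3 Q79K-W80R libraries were above all others, T1 and T5 were intermediate apart from the third T1 library, and T15, WT and LP libraries reached at most 48.8. Among genes of defense, Tep2, a thioester-containing protein, had 1011 to 1114 normalized counts in Q79K-W80R and 166 to 940 in the other 15 libraries, pirk, an inhibitor of the Imd pathway, had 287 to 316 normalized counts in Q79K-W80R and 18.8 to 263 in the other 15 libraries, and Idgf2, a chitinase-like growth factor, had 508 to 525 normalized counts in Q79K-W80R and 95.9 to 534 in the other 15 libraries. Only 10 of the 34 genes of the innate immunity list had a mean of at least 50, and none of these was among the 100, where 100 of all 7726 genes were.

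The members with the highest normalized counts, which depend on gene length as well, were Fer1HCH, CG43134, CG15721, GstD1, Hsp70Bc, Hsp70Bbb, Arc1 and chrb. Fer1HCH, the ferritin heavy chain that stores iron, had 46346 to 60930 normalized counts in Q79K-W80R, against 18285 to 48581 in T1, 11070 to 17107 in T15, 18798 to 48828 in T5, 12937 to 13203 in WT and 8676 to 11300 in LP. Its first T1 and first T5 libraries lay within the Q79K-W80R range. CG43134 had 34087 to 41235 normalized counts in Q79K-W80R and 9585 to 24150 in the other 15 libraries, and CG15721 had 40046 to 53310 normalized counts in Q79K-W80R and 5572 to 35041 in the other 15 libraries, both without overlap. Hsp70Bbb had 16347 to 17417 normalized counts in Q79K-W80R, against 3036 to 16731 in T1, 4061 to 5920 in T15, 3447 to 10663 in T5, 2095 to 8644 in WT and 3694 to 14726 in LP, and Hsp70Bc had 15628 to 17194 normalized counts in Q79K-W80R, against 5013 to 17276 in T1, 6810 to 7914 in T15, 4279 to 10439 in T5, 3620 to 10386 in WT and 4624 to 17148 in LP. Both overlapped with T1, and Hsp70Bc also with LP. The Hsp70 genes are near-identical copies that can exchange reads in an estimated count, so the level of a single copy is uncertain. Of 16 heat shock genes 15 were highest in Q79K-W80R on average, against 19.4% of all genes. Of these 15, 13 were within 0.60 of the next group on the log2 scale and so were not members.

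Some members were neighbors in the genome. CG44250, CG44251 and CG13321 lie side by side on 2R, and all overlapped between Q79K-W80R and T1 or T5: CG13321 had 2899 to 5262 normalized counts in Q79K-W80R, against 216 to 4613 in T1, 90.3 to 447 in T15, 909 to 5581 in T5, 20.8 to 223 in WT and 111 to 691 in LP. CG42362 and CG42363 had the same value in every library, 420 to 471 normalized counts in Q79K-W80R and 110 to 277 in the other 15 libraries, so their reads could not be told apart and they count as a single measurement. They lie between pirk and CG42365, which had 500 to 527 normalized counts in Q79K-W80R and 126 to 415 in the other 15 libraries. CG14050 and CG2854 are next to each other on X, and CG2854 had 123 to 148 normalized counts in Q79K-W80R, against 21.6 to 75.7 in T1, 14.5 to 24 in T15, 26.7 to 139 in T5, 11.1 to 13.4 in WT and 3.32 to 32.4 in LP.

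The other members included further enzymes of metabolism and membrane proteins. AOX1, an aldehyde oxidase, had 1564 to 1866 normalized counts in Q79K-W80R and 347 to 1240 in the other 15 libraries, and Ugt37D1, a UDP-glycosyltransferase, had 145 to 184 normalized counts in Q79K-W80R and 11 to 155 in the other 15 libraries. The lysosomal sulfamidase Sgsh had 97.6 to 121 normalized counts in Q79K-W80R and 14.5 to 67.6 in the other 15 libraries. Among transporters, CG4607, of a sugar transporter family, had 558 to 585 normalized counts in Q79K-W80R and 122 to 385 in the other 15 libraries, and CG15279, of the SLC6 family, had 459 to 548 normalized counts in Q79K-W80R and 72.7 to 368 in the other 15 libraries. NijA, a ninjurin of the cell surface, had 425 to 519 normalized counts in Q79K-W80R and 78.3 to 417 in the other 15 libraries, and Nepl21, a neprilysin-like peptidase, had 1020 to 1196 normalized counts in Q79K-W80R and 174 to 834 in the other 15 libraries. Arpc3B, a subunit of the actin-nucleating Arp2/3 complex, had 144 to 194 normalized counts in Q79K-W80R and 19.5 to 239 in the other 15 libraries, where the second T1 library was highest. Cys, a cystatin-like inhibitor of cysteine proteases that lies near CG31313 on 3R, had 1463 to 2348 normalized counts in Q79K-W80R and 382 to 2095 in the other 15 libraries. Without overlap between Q79K-W80R and the rest were also CG10126, CG12926, CG17029, CG18268, CG42694, CR14033, Cph and Ir76a. At least 1 other library reached into the Q79K-W80R range for CG4456, CG7142, CG7720, CG8369, CG11426, CG12868, CG13116, CG14961, CG14968, CG15347, CG15894, CG18744, CG30197 and FBgn0040813.

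At the limit the scores ran without a gap. The last 5 members, GstD9, GstD3, CG7966, Fer1HCH and GstE8, scored 0.676 to 0.669, and the next 5 genes, CG31661, CG5399, CG42808, CG3301 and Adh, scored 0.660 to 0.642. The same rule applied to the other groups gave 16 genes at or above the last Q79K-W80R score in T1, 2 in T15, 11 in T5, 50 in WT and 28 in LP.

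Behind Q79K-W80R, the next highest average was in T1 for 53 members, in T5 for 36, in T15 for 6, in LP for 4 and in WT for 1. Over all 7726 genes, where the group highest among these 5 was counted alike, the numbers were 1567, 1055, 1970, 1714 and 1420. T15 was the lowest of the 3 duplication forms for 80 of the 100 members, against 36.6% of all genes. The median member had 8.79 on the log2(normalized count + 1) scale in Q79K-W80R, 7.48 in T1, 6.52 in T15, 7.44 in T5, 6.41 in WT and 6.48 in LP. On this measure T1 and T5 lay between Q79K-W80R and WT, and T15 lay close to WT and LP. A single library supplied the highest value outside Q79K-W80R in many members: the first T1, the second T1 or the first T5 library did so in 82 of 100.

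These libraries also differed in other genes. The mean log2 level of the 100 genes was 9.30, 9.15 and 9.19 in Q79K-W80R, 8.43, 8.34 and 7.23 in T1, 7.22, 6.63 and 7.23 in T15, 8.46, 7.63 and 7.92 in T5, 6.55, 7.18 and 6.42 in WT and 6.88, 6.46 and 6.89 in LP. The mean of 11 chorion genes, which late-stage follicle cells express to build the eggshell, was 12.21, 12.28 and 12.21 in Q79K-W80R, 10.36, 12.15 and 13.69 in T1, 13.83, 13.79 and 13.62 in T15, 12.17, 13.72 and 12.23 in T5, 14.17, 14.13 and 13.50 in WT and 13.55, 13.43 and 13.44 in LP. Across the 18 libraries, each one with a chorion mean of at most 12.28 had a mean of the 100 genes of at least 7.92. Each one with a chorion mean of 13.43 or more had at most 7.63. The mean of 9 vitelline membrane genes was 14.53 to 14.66 in Q79K-W80R and 13.36 to 16.23 in the other 15 libraries. Within T1 and within T5 the library with the most chorion RNA had the lowest mean of the 100 genes. Within T15, WT and LP, where every chorion mean was 13.43 or more, it did not. In WT and LP the lowest mean of the 100 genes was in the library with the least chorion RNA. The part that the mixture of stages had in the differences was not tested.

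Midgut digestive enzymes were near 0 in Q79K-W80R. Their summed level over 18 genes was 15.8 to 16.7 normalized counts in Q79K-W80R, 77.8 to 5935 in T1, 9.16 to 165 in T15, 850 to 1733 in T5, 14 to 11682 in WT and 2942 to 7868 in LP, and alphaTry was listed at 0 in all 3 Q79K-W80R libraries. Hemocyte markers summed to 7569 to 8511 over 11 genes in Q79K-W80R, 4833 to 9376 in T1, 3308 to 3951 in T15, 5315 to 8567 in T5, 2946 to 5360 in WT and 4140 to 5635 in LP. Most of this sum was crq and srp, while Hml was at 57.8 to 79.8 in Q79K-W80R and 10.7 to 150 in the other 15 libraries and He was at 0 in Q79K-W80R. The part of hemocytes in the result was not tested. Muscle markers summed to 19617 to 20022 in Q79K-W80R and 17400 to 34157 in the others. None of the 100 genes belonged to any of the marker lists, but members were only 100 of 7726 genes, so this absence carries little weight. Of these lists 4 hemocyte, 2 fat body, 2 tracheal and 0 reproductive tract genes had a mean of at least 50. The member mesh came from the separate list of septate junction and enterocyte genes.

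**Figure D3:**
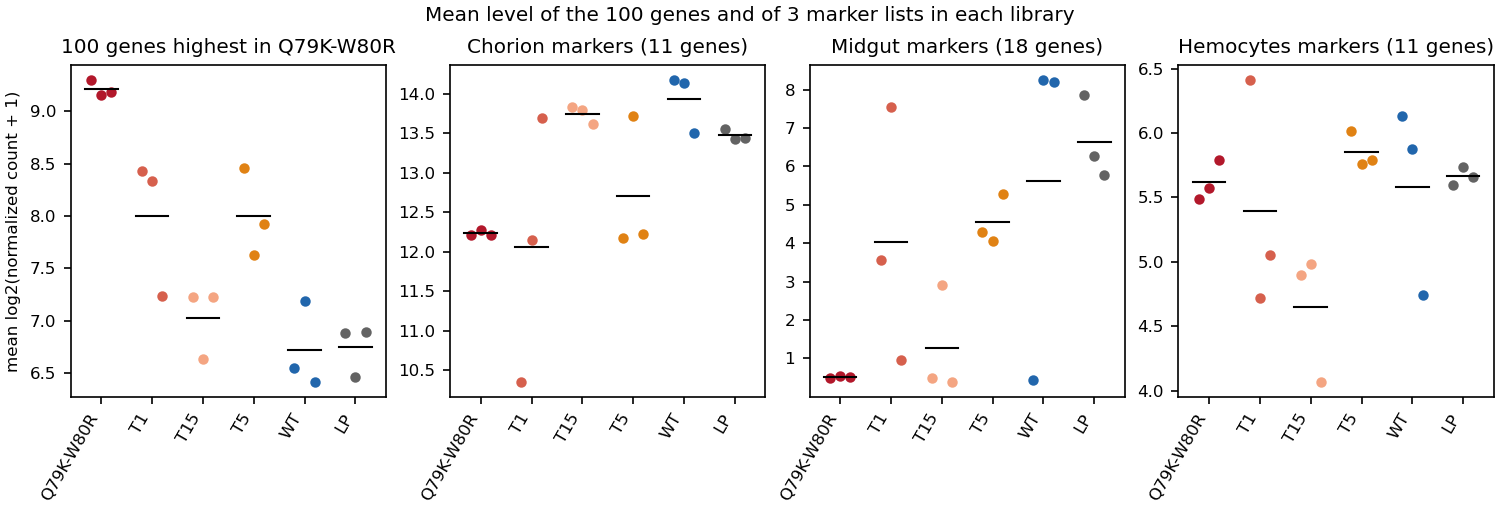
Mean log2(normalized count + 1) in each library for the 100 genes and for chorion, midgut and hemocyte markers, with a line at the group mean. The 100 genes sit at 9.15 to 9.30 in Q79K-W80R and at 6.42 to 7.18 in WT, while midgut markers are near 0.5 in Q79K-W80R and chorion markers lie at 12.21 to 12.28.

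The comparisons without Q79K-W80R asked whether other mutant forms moved the same genes. limma was run on log2(normalized count + 1) over all genes with 10 or more in 3 of the libraries compared, and a gene was called at a Benjamini-Hochberg adjusted p below 0.05 and a fold change of 1.5 or more in either direction (Log2FC, the difference of the group averages on this scale). With all 9 duplication libraries against the 3 WT libraries, 4 of 99 members tested rose and none fell, while 0.232% of all genes tested rose and 0.179% fell. CG32939 was not tested, as too few of these libraries reached the minimum. SPR rose with a Log2FC of 3.05 ± 0.41 (SE, adjusted p = 0.00939) and GstD2 with 3.28 ± 0.54 (adjusted p = 0.0201). Syt12 rose by 2.48 ± 0.46 (adjusted p = 0.030) and GstD5 by 2.29 ± 0.44 (adjusted p = 0.0380). The 9 duplication values of each of these genes were all above the 3 WT values. Of the 100 members 15 averaged less than 50 over the 15 libraries outside Q79K-W80R and so met the minimum mean only through Q79K-W80R, SPR with 45.7 and Syt12 with 34 normalized counts among them. Syt12 averaged 38.7 over the 12 libraries compared here, and with a minimum of 50 over these libraries it was not tested and 2 members were called. The median Log2FC of members was 0.80, against -0.01 over all genes tested, and 93 of 99 were positive, against 47.4% of all genes. Members moved together by library. The third T1 library was lowest of T1 in 78 members, and the first T5 library was highest of T5 in 82. Members are therefore not separate observations here or in the comparisons below. The number called ran between 0, without the third WT library, and 7, without the second T1 library, where 0.0424% and 0.373% of all genes were higher. It was 1 without the first WT library, and 2 without the third T1, the first or the third T15, or the second or the third T5 library. The call of SPR was kept in 11 of 12 fits that each left out a library, with adjusted p between 9.27e-05 and 0.0720 over all alternatives, and that of GstD2 in 10 of 12 (0.00258 to 0.127). GstD5 and Syt12 were called in 5 and 4 of the 12, with adjusted p between 0.000513 and 0.208 and between 0.00318 and 0.187.

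In T5 against WT, 5 of 99 members rose and none fell, against 0.439% of all genes that rose and 0.275% that fell. GstD5 had a Log2FC of 3.07 ± 0.36 (limma, adjusted p = 0.0323), SPR 3.42 ± 0.44 (adjusted p = 0.0388), scaf 2.95 ± 0.41 (adjusted p = 0.0482), daw 2.51 ± 0.35 (adjusted p = 0.0487) and CG5171 3.76 ± 0.58 (adjusted p = 0.0487). In all 5 the T5 libraries were above the WT libraries. SPR averaged 49.1 normalized counts over these 6 libraries, and with a minimum of 50 over them SPR was not tested and no member was called. The median over members was 1.01, against -0.01 over all genes. At an unadjusted p below 0.05, 61 members were higher in T5 and none lower, while 10.5% of all genes were higher. Members that missed the threshold included CG13659 with 1.95 ± 0.35 (adjusted p = 0.0587), GstD2 with 3.77 ± 0.68 (adjusted p = 0.0587), chrb with 1.28 ± 0.26 (adjusted p = 0.0684) and rpr with 2.29 ± 0.50 (adjusted p = 0.0767). No member was called without any 1 of the WT libraries or without the first T5 or the third T5 library, while 25 of 98 were called higher without the second T5 library, where 2.86% of all genes were higher and 2.43% lower. Adjusted p over all alternatives ran up to 0.258 for GstD5, scaf, daw and CG5171, and up to 0.105 for SPR, which was tested in only 3 of the 6 fits that left out a library.

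In T15 against WT, 2 of 98 members rose and none fell, against 0.236% of all genes that rose and 0.0787% that fell. daw had a Log2FC of 2.39 ± 0.23 (limma, adjusted p = 0.0117) and scaf 2.26 ± 0.29 (adjusted p = 0.0282), and their T15 libraries were above all WT libraries. The median over members was 0.22, against -0.01 over all genes. No pairing of libraries is given in the labels, but deviations from the group means correlated weakly by library number (r = 0.26, 0.281 and 0.224). With the replicate block on these numbers 5 members were called, with 0.607% of all genes higher and 1.26% lower. Without any 1 of the T15 libraries or without the first WT library no member was called, and leaving out the second WT library gave 11 higher, with 1.86% of all genes higher and 1.35% lower, and leaving out the third gave 3, with 0.228% and 0.182%. Adjusted p over the alternatives ran between 0.00122 and 0.168 for daw and between 0.0109 and 0.189 for scaf. In T1 against WT, none of 99 members was called in either direction, and 0% of all genes rose and 0% fell. The limma fit gave 50 members at an unadjusted p below 0.05, all higher in T1, while 6.04% of all genes were higher at that level. The median over members was 1.11, against 0.00 over all genes. Without the third T1 library 36 of 98 members were called, all higher in T1, and the calls over all genes grew to 4.19% higher and 3.36% lower.

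In WT against LP, none of 97 members was called, against 0.353% of all genes that rose and 0.0661% that fell. The limma fit gave 10 members at an unadjusted p below 0.05, of which 8 were higher in WT, a share of the 97 no larger than the 8.83% of all genes that were higher at that level. The median over members was -0.05, against 0.01 over all genes, and 44 of 97 were positive, against 51.3% of all genes. CR42722 had the lowest value, -5.73 ± 2.56 (adjusted p = 0.337), a value that depends on the pseudocount, since its WT libraries were listed at 0, 1445 and 0 normalized counts. Without the second WT library 1 member was called lower in WT (0.0337% of all genes), and without the third 1 was called higher (1.01% of all genes).

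**Figure D4:**
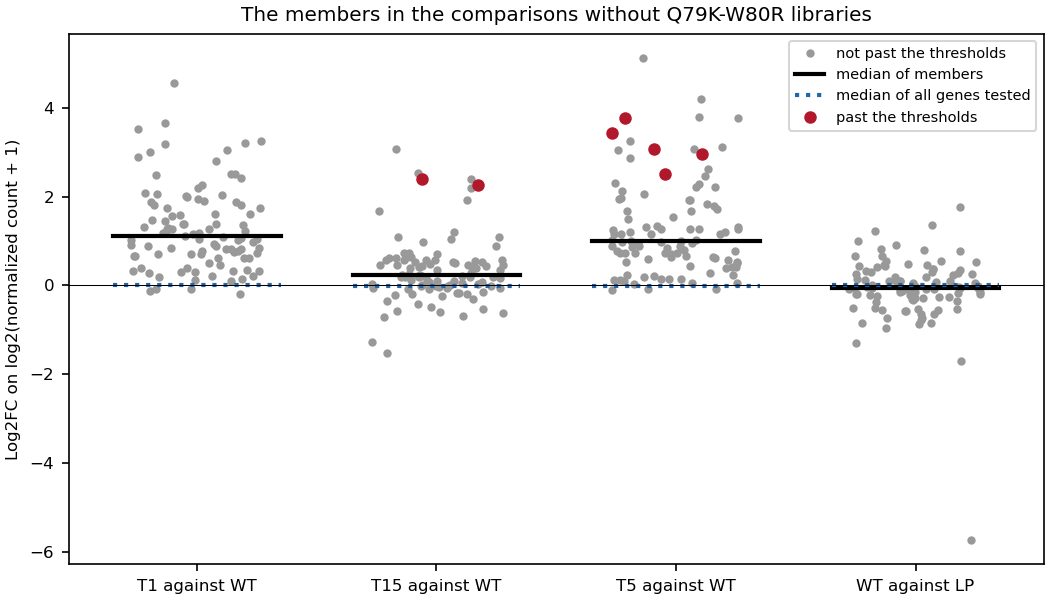
Log2FC of the members tested in 4 comparisons that leave out Q79K-W80R, with a point for each gene, red points for genes past the thresholds, a black line at the members' median and a dotted line at the median of all genes tested. The members' medians are 1.11 for T1, 0.22 for T15 and 1.01 for T5 against WT, and -0.05 for WT against LP.

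The 3 duplication forms were also compared with each other, a step added after the values had been seen. In T5 against T15, 2 of 99 members rose and none fell, against 0.673% of all genes that rose and 0.224% that fell. CG5171 had a Log2FC of 2.67 ± 0.39 (limma, adjusted p = 0.0410) and mesh 2.54 ± 0.37 (adjusted p = 0.0408), and in both genes every T5 library was above every T15 library. The median over members was 0.82, against 0.00 over all genes. No member was called without the first T5 or the third T5 library or without any 1 of the T15 libraries, while 42 of 99 were called higher without the second T5 library, where 5.47% of all genes were higher and 4.88% lower. The midgut genes Amy-p, Amy-d, Jon99Ciii and LManV, and the hemocyte genes Ppn and Hml were also higher in T5 than in T15 in this fit, with Log2FC of 1.53 to 7.23, and their part in the result was not tested. In T1 against T15, none of 99 members was called, against 0% of all genes that rose and 0.0112% that fell. The limma fit gave 49 members at an unadjusted p below 0.05, 47 of them higher in T1, while 10.2% of all genes were higher at that level. Without the third T1 library 62 members were called higher and 2 lower in T1, together with 11.2% and 6.53% of all genes.

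Other genes of the members' lists and families were read in the same fits. Of 28 to 30 genes tested in the oxidative stress and xenobiotic list, GstD2 and GstD5 rose in the 9 duplication libraries against WT and GstD5 in T5 against WT, with no gene called in T1 or T15 and none called lower. Of 27 PI3K, Akt and TOR genes, 2 were lower in T5 against WT, Pdk1 with a Log2FC of -0.89 ± 0.12 (limma, adjusted p = 0.0482) and REPTOR-BP with -1.19 ± 0.14 (adjusted p = 0.0323), and none was higher. Neither is among the 100 genes. In that comparison 0.275% of all genes were lower, and no gene of any kind was called without the second or the third WT library. In the ecdysteroid kinase-like family CHKov1 rose in the 9 duplication libraries against WT, by 2.94 ± 0.22 (limma, adjusted p = 6.63e-05), and also in T15 and T5, and no other gene of the family was called in these comparisons. It is not a member, having a lower level in Q79K-W80R than in the duplication forms. In T15 against WT no gene of any kind was called without the first T15 library. In T5 against T15, 4 of 30 genes tested in that family rose, with a Log2FC of 4.55 ± 0.66 for CG9259 (limma, adjusted p = 0.0408), 4.44 for CG10513, 4.07 for CG11889 and 4.01 for CG10560, and 2 of 45 cytochromes P450 rose, Cyp4g1 with 2.30 and Cyp12a4 with 1.47, against the 0.673% of all genes above. None of these 6 is a member, and the midgut and hemocyte genes named above were higher in the same fit.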

How the data were processed

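RNA-Seq was done by the authors on follicle cells of 6 groups with 3 libraries each. Per the labels, the processing notes name bcl2fastq 2.18.0.12, Bowtie and RSEM 1.3.1, and the paper's methods name DESeq2. The genome build, like the Bowtie version, was not given in the sources used here. Values as deposited are normalized counts, used as a signal that is not whole. Whole reads could not be recovered from them, so no count model was run. The third Q79K-W80R column is absent from that sample's description and was taken for that group because its name begins like those of the other 2.

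Here log2(normalized count + 1) was computed, and groups were compared by limma 3.58.1 in R 4.3.3 (eBayes with a trend) over genes at 10 or more in 3 compared libraries, with Benjamini-Hochberg adjustment over all genes tested. A call needed an adjusted p below 0.05 and a fold change of 1.5 or more. The fits were tested on simulated data. Symbols, arms and neighbors came from the BDGP6 annotation given for this work, which named 98 of the 100 members. Depth in reads is unknown, so intervals on counting error were not computed.

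The members, the lists of genes, and the naming rule (the 25 highest scores, list members, called members, those at the limit, neighbors and families, and the 8 highest means) were chosen with earlier results of these data known. The lists for the GST, P450, ecdysteroid kinase-like and septate junction genes were added after members had been seen, as were the remaining gene names given. Library numbers were checked for pairing by correlating deviations from group means, and only T15 with WT had all 3 correlations above 0.1 (0.260, 0.281 and 0.224). Alternatives were pseudocounts of 0.5 and 5, other filters, TMM and quantile scaling, the group median, a fit of all 18 libraries, no trend, a replicate block, LP in place of WT, and each library left out. Scores and figures were made in Python 3.11.15 with matplotlib 3.10.9.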

Additional observations from a re-analysis of the deposited data

Results flagged for a closer look

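A pair of genes differed between duplication forms by the test of the difference itself. The comparison was added after the values had been seen. In T5 against T15, 2 of 99 members rose and none fell, while 0.673% of all genes rose and 0.224% fell. The midgut and hemocyte genes named above were also higher in T5 in this fit, and their part was not tested. CG5171 was higher in T5 than in T15, with a Log2FC of 2.67 ± 0.39 (SE, limma, adjusted p = 0.0410), and mesh was higher in T5 than in T15, with a Log2FC of 2.54 ± 0.37 (adjusted p = 0.0408). In both genes all 3 T5 libraries were above all 3 T15 libraries. Each call held in 5 of 9 other settings and in 1 of 6 fits that left out a library, the one without the second T5 library, with adjusted p between 0.00140 and 0.150 for CG5171 and between 0.00189 and 0.188 for mesh.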

How the results depend on the processing

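Membership in the 100 genes was kept by 59 genes at a mean of at least 10, by 71 with group medians, by 75 at a mean of at least 100 and by 93 to 100 at the other settings. With each of the 18 libraries left out it was kept by 67 to 98, fewest without the third T1 library, and 45 genes were kept in every such set. None of the 25 highest scores was lost there, but a mean of at least 100 left out 6 of them, Cyp12a5, CG5246, Dgk, CG18258, CG15431 and CG15422. The number of members called in the 9 duplication libraries against WT, 4 as reported, was 2 at a mean of at least 50 over the compared libraries, 2 with the replicate block, 9 with quantile normalization, 13 with LP as the reference and 26 with all 18 libraries in the fit. In T5 against WT, 5 as reported, it was 0 at that mean, 0 with no trend, 3 with a pseudocount of 0.5, 10 with quantile normalization, 13 with the replicate block and 38 with all 18 libraries. In T15 against WT, 2 as reported, it was 1 with no trend, 4 with quantile normalization, 5 with the replicate block and 7 with all 18 libraries. In T1 against WT and in WT against LP, 0 as reported, it was 36 and 2 with all 18 libraries. In T1 against T15 it was 0 as reported and 7 with all 18 libraries. In T5 against T15, 2 as reported, it was 0 at that mean, 0 with quantile normalization, 0 with no trend, 1 with all 18 libraries, 6 with a pseudocount of 5, 12 with no filter, 12 rescaled by TMM factors and 53 with the replicate block. Leaving out a library gave 0 to 7 members in the duplication libraries against WT, 0 to 36 in T1, 0 to 11 in T15 and 0 to 25 in T5 against WT, 0 to 1 in WT against LP, 0 to 64 in T1 against T15 and 0 to 42 in T5 against T15. At the highest counts against WT, 0.373% of all genes were higher in the duplication libraries, 4.19% in T1, 1.86% in T15 and 2.86% in T5. In WT against LP, 0.0337% were lower without the second WT library and 1.01% higher without the third. In T1 against T15 11.2% were higher and 6.53% lower, and in T5 against T15 5.47% were higher and 4.88% lower. Shares over all genes also differed by setting. With all 18 libraries 2.45% of all genes were higher in the duplication libraries, 3.60% in T1, 0.495% in T15 and 3.22% in T5 against WT, 1.05% in WT against LP, 1.39% in T1 against T15 and 0.269% in T5 against T15. With the replicate block the shares were 0.607% in T15 and 0.901% in T5 against WT and 6.45% in T5 against T15, where TMM factors gave 1.91%, no filter 1.79% and a pseudocount of 5 gave 1.23%. With LP as the reference 1.13% were higher in the duplication libraries, and quantile normalization gave 0.494% there, 0.299% in T15 and 0.760% in T5 against WT. The causes were not tested. The calls of single members named in the text kept their direction under all alternatives run, with 95 such values past the threshold and 24 short of it at other settings, and 40 past and 59 short of it with a library left out. For called genes outside the 100, single values under the alternatives were not read. The labels give no pairing of libraries between groups. The libraries share only a number, also in T15 against WT, and the block is not a paired analysis of them. With 3 libraries a group, and libraries that differ in chorion and midgut RNA within T1, T5 and WT, the calls in single comparisons depend on single libraries, and values of fewer than 10 normalized counts rest on few reads.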
